A study of Mus musculus with 18 samples.

Results

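The Cyp4a genes of mouse liver encode cytochrome P450 enzymes that oxidise the far (omega) end of fatty acids. The 6 members described here, Cyp4a10, Cyp4a14, Cyp4a31, Cyp4a32, Cyp4a12a and Cyp4a12b, were taken by gene symbol from 52230 annotated genes, and all 6 were among the 10938 genes with enough reads to be tested. They were measured by RNA-sequencing in livers from 18 mice, 1 library per mouse. GKRP, the product of Gckr, is a regulatory protein that binds glucokinase. The mice carried GKRP with proline (446PP, here PP) or leucine (446LL, here LL) at residue 446 and came from the knock-in line GCKR-P446L-EMI-B6N, so the change is in the germline and is not confined to hepatocytes. There were 4 PP males, 4 LL males, 5 PP females and 5 LL females, all on standard chow. The design text of the series gives 14 weeks for all mice, but the labels of single mice give 9 to 14 weeks, and the ages used here are those of the labels: 9, 12, 14 and 14 weeks for male PP 1 to 4, 13, 13, 13 and 14 weeks for male LL 1 to 4, 9 to 14 weeks for PP females and 11 to 14 weeks for LL females. The number after a group name is the mouse number of the labels. Gene sums do not read the codon that was changed, so genotype rests on the labels.

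Omega-hydroxylation is a minor route of fatty acid breakdown that gains weight when fat supply to the liver is high. The omega-hydroxy acid is oxidised further to a dicarboxylic acid, which is shortened in peroxisomes. In mouse liver Cyp4a10, Cyp4a14 and their close relatives are classical targets of PPARα, a nuclear receptor that is activated by fatty acids, whereas Cyp4a12a is known for its dependence on androgen and on the male pattern of growth hormone release.

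The members lie in 1 cluster on chromosome 4 (GRCm39). Cyp4a12a (ENSMUSG00000066071) spans bases 115156243 to 115190012 and Cyp4a12b (ENSMUSG00000078597) 115268820 to 115296235, both on the plus strand. Cyp4a14 (ENSMUSG00000028715) follows on the minus strand at 115343397 to 115353344. Cyp4a10 (ENSMUSG00000066072) at 115375461 to 115390849, Cyp4a31 (ENSMUSG00000028712) at 115420818 to 115436212 and Cyp4a32 (ENSMUSG00000063929) at 115458134 to 115479704 complete the cluster on the plus strand. Each coding sequence has 12 coding exons and, without its stop codon, 1521 to 1527 bases.

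The sequences decide how well reads can be told apart. Cyp4a10, Cyp4a31 and Cyp4a32 were 96.0% to 97.2% identical to one another over the coding sequence, and Cyp4a12a and Cyp4a12b were 98.5% identical, with 23 differing bases. Cyp4a14 was 75.7% to 76.4% identical to the other members, and it shared 0 stretches of 31 bases with the coding sequence of Cyp4a10. The 60-base stretch of exon 2 in which the Cyp4a10 trio differed most is shown because its differing bases let some reads be assigned. It lies at chr4:115376837-115376896 in Cyp4a10, chr4:115422217-115422276 in Cyp4a31 and chr4:115459467-115459526 in Cyp4a32, and capitals mark the 9 positions at which the 3 genes are not all alike (GRCm39, plus strand, 5′ to 3′). Cyp4a10 and Cyp4a31 differ only at the base after ttgtgtc and at the last base, and the other capitals set Cyp4a32 apart.
Cyp4a10: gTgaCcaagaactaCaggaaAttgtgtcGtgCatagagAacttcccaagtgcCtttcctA
Cyp4a31: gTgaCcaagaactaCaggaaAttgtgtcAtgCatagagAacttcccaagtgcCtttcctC
Cyp4a32: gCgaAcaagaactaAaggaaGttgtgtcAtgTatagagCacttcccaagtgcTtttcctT

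A stretch of exon 8 is shown as the opposite case. Cyp4a10 (chr4:115382756-115382815), Cyp4a31 (chr4:115428216-115428275) and Cyp4a32 (chr4:115468475-115468534) were identical over these 60 bases, so a read from it could belong to any of them. Capitals mark the bases that differ from Cyp4a10, of which there were 7 in Cyp4a14 (chr4:115348554-115348613, minus strand) and 5 in Cyp4a12a (chr4:115184673-115184732, plus strand).
Cyp4a10: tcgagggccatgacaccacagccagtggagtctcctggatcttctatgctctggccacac
Cyp4a14: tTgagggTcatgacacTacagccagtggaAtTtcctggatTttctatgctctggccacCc
Cyp4a12a: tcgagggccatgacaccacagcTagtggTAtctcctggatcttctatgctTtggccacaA

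For the Cyp4a12 pair, the 60-base coding stretch with the most differences, in exon 6, held 4, which are in capitals (Cyp4a12a chr4:115183825-115183884 and Cyp4a12b chr4:115290078-115290137, plus strand).
Cyp4a12a: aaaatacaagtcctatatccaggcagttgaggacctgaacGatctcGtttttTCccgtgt
Cyp4a12b: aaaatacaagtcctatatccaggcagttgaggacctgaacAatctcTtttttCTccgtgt

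Over whole transcripts, 62.2% of the 31-base words of Cyp4a12a and 62.9% of those of Cyp4a12b also occur in another gene, as do 62.8% of Cyp4a32, 44.9% of Cyp4a10, 31.6% of Cyp4a31 and 1.98% of Cyp4a14. The split of reads within the Cyp4a10 trio and within the Cyp4a12 pair is therefore uncertain, and sums are given beside the single genes below.

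Libraries held 3794671 to 6613905 estimated counts. Mitochondrial transcripts took 8.52% to 17.9% of the counts, the most in male LL 1, and the fragment length taken from the tables ranged from 203 bases in male LL 2 to 631 bases in female PP 3. Summed hepatocyte marker levels, in TPM (an abundance scaled for transcript length and to the same total in each library), were 27160 to 43920 in PP males, 44840 to 63300 in LL males, 84090 to 139600 in PP females and 65710 to 85670 in LL females, with 0 of 8 markers absent. Stellate cell and fibroblast markers, 6 in all, summed to 30.6 to 76.15 TPM in PP males and 66.4 to 129 in LL males, and 6 endothelial markers to 5.29 to 20.2 and 12.3 to 22.9. In PP and LL females these sums were 161 to 198 and 166 to 214, and 30.8 to 56.5 and 19.3 to 40.8. In males the medians were 58.99 in PP and 112 in LL mice for the first list. For the second they were 11.7 and 19.9, and for each list the ranges overlapped. Kupffer cell and other macrophage markers had male medians of 83.4 in PP and 64.4 in LL mice, and cholangiocyte markers 8.68 and 8.49. The part of these cell types in the Cyp4a differences was not tested. Of 6 kidney markers, 5 (Umod, Slc34a1, Slc12a1, Aqp2 and Slc22a6) were at 0 in all 18 libraries, and the summed kidney level was at most 0.708 TPM. In whole liver, fewer cells of a type and less RNA per cell cannot be told apart.

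Values by mouse are normalized counts, that is, estimated counts divided by the DESeq2 size factor of the library. Log2 fold changes and their standard errors (SE) come from DESeq2 fitted to all 18 libraries. A gene was called when its Benjamini-Hochberg adjusted P was below 0.05 and its fold change at least 1.3 or at most 0.7. DESeq2 gives no adjusted P to genes of lower counts that its independent filter leaves out, and such genes cannot be called. It kept 3301 of the 10938 tested genes for the male genotype comparison, 8598 for the female one, 10930 for each sex comparison and 1606 for the interaction. Levels are compared between genes in TPM, which takes transcript length into account. Nothing in the labels ties the mice to litters or days. The P values rest on the spread between mice. In the fit of all 18 libraries a gene has the same dispersion in both sexes, not that of the mice compared. For Cyp4a14 it was 0.459, against 0.953 fitted on males alone and 0.0401 on females alone.

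Cyp4a14, a PPARα target and the member whose reads are least shared, had 88.0, 10.5, 47.0 and 153 normalized counts in male PP 1 to 4. In male LL 1 to 4 it had 2486, 1260, 862 and 106. Male LL 1, 2 and 3 were above all PP males, while male LL 4 lay between male PP 1 and male PP 4, so the groups overlapped. Cyp4a14 rose by 3.98 ± 0.70 in log2 fold change (SE; DESeq2 adjusted P = 1.87e-05, 95% interval 2.61 to 5.35), a 15.8-fold difference. It was the second of 10938 genes by P in this fit. Fitted on males alone, where its dispersion was 0.953 against 0.459 over all libraries, it had 3.99 ± 1.00 (DESeq2 adjusted P = 0.00713) and was still called, while a two-sided exact permutation test of the log2 values of these 8 mice gave p = 0.0571, where the smallest p that 4 against 4 mice allow is 0.0286. Without male LL 4 the log2 fold change was 4.36 and without male LL 1, the library with the most mitochondrial counts, it was 3.31 (DESeq2 adjusted P = 1.39e-10 and 0.00314). The call was lost with edgeR's quasi-likelihood test (3.98, edgeR adjusted P = 0.0626) and with limma on log2(TPM + 1) (4.07, limma adjusted P = 0.0576).

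In females Cyp4a14 was far more abundant. Female PP 1 to 5 had 5569, 5385, 4522, 3642 and 6295 normalized counts and female LL 1 to 5 had 4222, 4607, 7560, 5316 and 5826. The female ranges overlapped over most of their length, and each female had more Cyp4a14 than any male. The log2 fold change by LL genotype in females was 0.12 ± 0.62 (DESeq2 adjusted P = 0.956), with a 95% interval from -1.10 to 1.33. DESeq2 on the females alone gave 0.11 ± 0.18 (adjusted P = 0.791), with a dispersion of 0.0401 against 0.459 over all libraries. Female groups varied less than male groups, with a coefficient of variation of 20.1% in PP females and 23.7% in LL females against 81.9% in PP males and 84.4% in LL males.

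Cyp4a10, the other well known PPARα target and the most abundant member in LL males, had 602, 166, 985 and 1516 normalized counts in male PP 1 to 4 and 5465, 4139, 2796 and 378 in male LL 1 to 4. The order of the mice was that of Cyp4a14 in the LL group, with male LL 4 below 3 of the 4 PP males. The log2 fold change was 1.97 ± 0.61 (95% interval 0.77 to 3.17), which did not pass the adjusted threshold (DESeq2 adjusted P = 0.0871; exact permutation p = 0.143). Without male LL 4 it was 2.34 (DESeq2 adjusted P = 0.00109) and without male PP 4 it was 2.45 (DESeq2 adjusted P = 0.0359), both called, and so was the fit with transcript length as an offset (2.15, DESeq2 adjusted P = 0.0471). The age and fragment length of male LL 4 were 14 weeks and 582 bases, the highest of the LL males. With age as a term the log2 fold change of Cyp4a10 was 1.95 and with fragment length as a term 1.98 (DESeq2 adjusted P = 0.235 and 0.270).

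In females Cyp4a10 had 4951, 3627, 5084, 3685 and 4851 normalized counts in PP and 4772, 5978, 8662, 6145 and 5808 in LL mice. Female LL 2 to 5 were above all PP mice, and female LL 1 was below 3 of the 5 PP mice. The log2 fold change was 0.50 ± 0.55 (95% interval -0.57 to 1.57; DESeq2 adjusted P = 0.722). The exact permutation test of the 10 females gave p = 0.0317, and DESeq2 on the females alone gave an SE of 0.17 with an adjusted P of 0.0914.

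**Figure D1:**
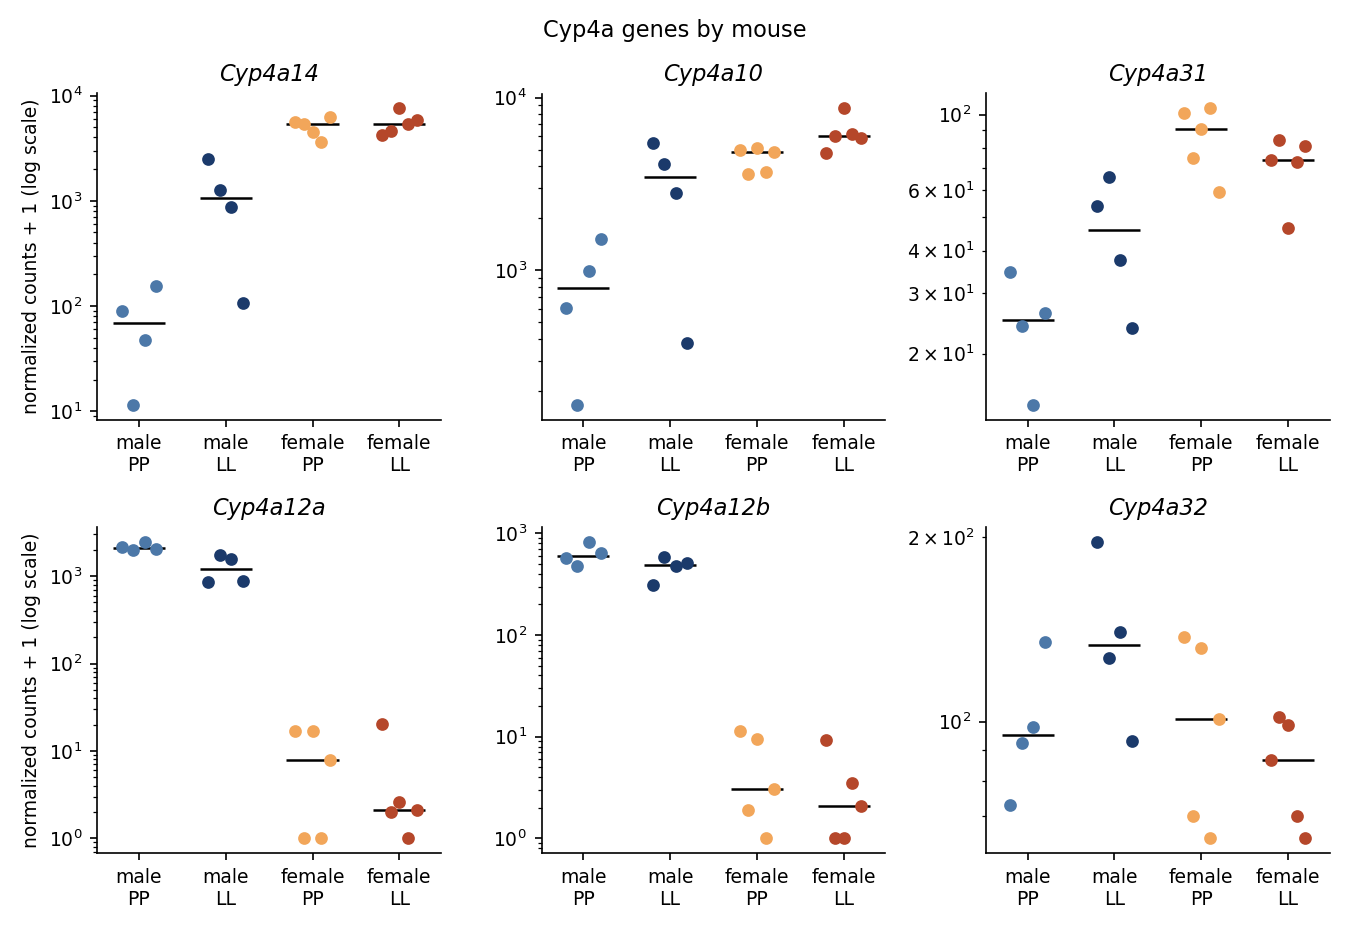
Normalized counts of the 6 Cyp4a genes in each mouse (vertical log axis, normalized count + 1) in livers of PP males, LL males, PP females and LL females, where points are mice and horizontal lines are group medians. Cyp4a14 in males spread from 10.5 to 2486, while every female lay between 3642 and 7560. Cyp4a12a was at 857 or more in every male and at 19.1 or less in every female.

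Cyp4a31 and Cyp4a32, the close relatives of Cyp4a10, were much lower. Cyp4a31 had 33.6, 23.1, 13.2 and 25.2 normalized counts in PP males and 53.1, 64.7, 36.6 and 22.7 in LL males. Male LL 1, 2 and 3 were above all PP mice and male LL 4 was again the lowest of its group. The log2 fold change was 0.92 ± 0.32 with an unadjusted DESeq2 p of 0.00431, and DESeq2 gave no adjusted P at this level of counts. Without male LL 4 it was 1.14 and was called (DESeq2 adjusted P = 0.0470). Cyp4a32 had 72.0, 91.3, 96.8 and 134 normalized counts in PP males and 196, 126, 139 and 91.8 in LL males, and its log2 fold change of 0.47 ± 0.27 had an unadjusted DESeq2 p of 0.0835. In females the log2 fold changes were -0.27 ± 0.25 for Cyp4a31 and -0.26 ± 0.25 for Cyp4a32 (DESeq2 adjusted P = 0.657 and 0.663). With Cyp4a10, Cyp4a31 and Cyp4a32 summed, so that reads shared within the trio no longer matter, the male log2 fold change by LL genotype was 1.84 (DESeq2 adjusted P = 0.0659) and the female one 0.47.

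Cyp4a12a, the androgen-dependent member, had 2141, 2003, 2471 and 2022 normalized counts in male PP 1 to 4 and 857, 1759, 1562 and 872 in male LL 1 to 4. All 4 LL values were below all 4 PP values, the only member for which the male groups did not overlap, and the exact permutation p was 0.0286. Spread in PP males was small, with a coefficient of variation of 10.04%, against 37.0% in LL males. The log2 fold change was -0.77 ± 1.08 in the fit of all libraries (95% interval -2.89 to 1.34; DESeq2 adjusted P = 0.878). Fitted on males alone it was -0.77 ± 0.23 (DESeq2 adjusted P = 0.0417) and was called. The estimates were alike and the SE was not: DESeq2 gave this gene a dispersion of 1.12 over all libraries, including females with counts of 0 to 21.2, and of 0.0523 over males alone.

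Scaling also bears on Cyp4a12a. In TPM, PP males had 78.1, 94.5, 84.0 and 98.9 and LL males 56.3, 118, 82.8 and 38.3, so that the groups overlapped, with male LL 2, the library of the shortest fragments, at the top. On log2(TPM + 1) the difference was -0.38 (limma adjusted P = 0.611), where the median of all tested genes was 0.21 higher in LL males than in PP males. Without male LL 1 and without male LL 4, the libraries with the lowest normalized counts, the log2 fold changes in the fit of all libraries were -0.63 and -0.63.

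Cyp4a12b, nearly identical to Cyp4a12a, had 565, 476, 824 and 634 normalized counts in PP males and 308, 579, 478 and 507 in LL males. These ranges overlapped, and the log2 fold change of -0.42 ± 0.76 was not called in the fit of all libraries (DESeq2 adjusted P = 0.923) or of males alone (DESeq2 adjusted P = 0.437), and on log2(TPM + 1) it turned to 0.0342. The pair summed had -0.69 (DESeq2 adjusted P = 0.891). In females the log2 fold changes by LL genotype were -0.75 ± 1.03 for Cyp4a12a and -0.89 ± 0.85 for Cyp4a12b, on group means of 7.77 and 4.35 normalized counts in PP and 4.57 and 2.35 in LL mice, too few reads to compare.

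In males, 1 of the 6 members was called by LL genotype, Cyp4a14, where 0.283% of all tested genes were called. Only 3301 of the 10938 tested genes, Cyp4a31 and Cyp4a32 not among them, had an adjusted P and could be called. At an unadjusted DESeq2 p below 0.05 there were 3 of 6 (Cyp4a14, Cyp4a10 and Cyp4a31), against 7.81% of all genes, and for 1 of 6 (Cyp4a12a) the groups did not overlap, against 4.07%. The count of called members went from 1 to 3 when single libraries were left out. In females DESeq2 and edgeR, each fitted to all libraries, called 0 of 6. At an unadjusted p below 0.05 there were 0 of 6 by either tool, and 0 of 6 were without overlap. The shares of all genes were 0.658% called by DESeq2, 13.0% at an unadjusted p below 0.05 and 2.66% without overlap. With DESeq2 on the females alone, Cyp4a10 had an unadjusted p of 0.00326 and was not called (adjusted P = 0.0914). Its exact permutation p was 0.0317.

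**Figure D2:**
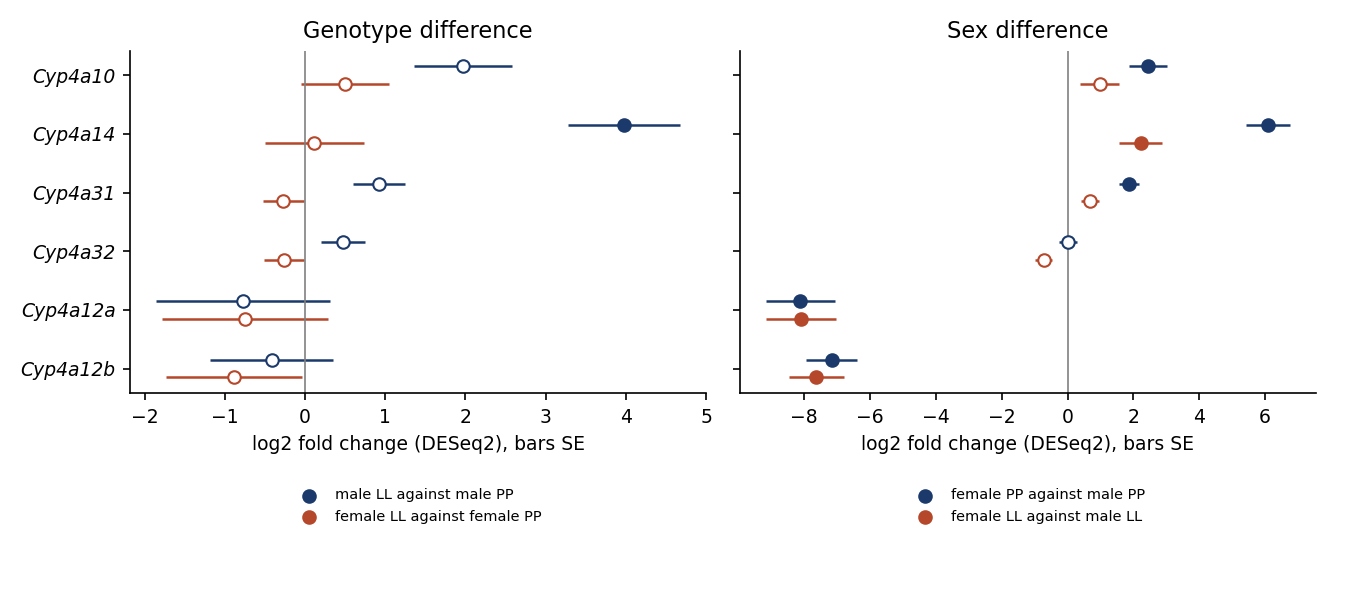
Log2 fold change of each Cyp4a gene ± SE (DESeq2, all 18 libraries), by LL genotype within each sex on the left and by sex within each genotype on the right, where filled points passed the adjusted threshold and the fold limit. By genotype, Cyp4a14 in males (3.98) was the called point, and by sex Cyp4a12a and Cyp4a12b were at -7.16 or lower.

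Whether the genotype difference in Cyp4a14 was itself different between the sexes was tested by the genotype by sex interaction, that is, the female minus the male effect of LL genotype. It was -3.87 ± 0.93 in log2 (DESeq2 adjusted P = 0.0180), and Cyp4a14 was the 1 of 6 members called where 0.119% of all genes were. That share is 13 of 10938 genes, of which only 1606 had an adjusted P and could be called. The call was lost in 13 of 29 alternative fits, among them edgeR (adjusted P = 0.385), limma (adjusted P = 0.226) and 10 of the fits that left out 1 library, while the value stayed between -4.50 and -3.20. Cyp4a10 had an interaction of -1.47 ± 0.82 (DESeq2 adjusted P = 0.550) and Cyp4a12a of 0.02 (95% interval -2.91 to 2.95; DESeq2 adjusted P = 0.997). For Cyp4a31 and Cyp4a32 it was -1.19 ± 0.41 and -0.74 ± 0.37, with unadjusted DESeq2 p of 0.00356 and 0.0459 and no adjusted P. Cyp4a12b had -0.47 ± 1.14 and also no adjusted P.

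The sexes differed in Cyp4a genes in both directions. Between PP females and PP males 5 of the 6 members were called, 3 higher and 2 lower in females, where 6.45% of all tested genes were called. The same 5 had groups without overlap (exact permutation p = 0.0159 each, the smallest that 5 against 4 mice allow), against 9.74% of all genes. Cyp4a14 was higher in females by 6.09 ± 0.66 (68.1-fold; DESeq2 adjusted P = 1.32e-17), Cyp4a10 by 2.44 ± 0.58 (5.43-fold; adjusted P = 0.000920) and Cyp4a31 by 1.87 ± 0.30 (3.65-fold; adjusted P = 3.10e-08). Female PP mice had 58.3 to 103 normalized counts of Cyp4a31, the lowest of them above the highest male PP value. Cyp4a12a was 277-fold lower in females (-8.11 ± 1.05; DESeq2 adjusted P = 1.64e-12) and Cyp4a12b 143-fold lower (-7.16 ± 0.78; adjusted P = 1.15e-17).

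The Cyp4a12 transcripts of females were few. Female PP 1 to 5 had 16.0, 0, 15.9, 0 and 6.94 normalized counts of Cyp4a12a, and female LL 1 to 5 had 19.1, 0.988, 1.63, 0 and 1.09. Cyp4a12b had 10.4, 0.909, 8.39, 0 and 2.08 in PP females and 8.19, 0, 0, 2.47 and 1.09 in LL females. The 3 females with the highest Cyp4a12a value, female LL 1, female PP 1 and female PP 3, also had the 3 highest values of Cyp4a12b, which can share its reads.

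For Cyp4a32 no difference between the sexes was detected in PP mice. PP females had 137, 69.1, 131, 63.4 and 99.9 normalized counts, a range that overlapped that of PP males. The log2 fold change was 0.01 ± 0.26 (95% interval -0.50 to 0.52; DESeq2 adjusted P = 0.992). On log2(TPM + 1) it was 0.77 (limma adjusted P = 0.0472, called), on a scale where the median of all genes was itself 0.50 higher in PP females than in PP males.

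In LL mice 3 of the 6 members were called by sex, 1 higher and 2 lower in females, against 6.12% of all genes, and the same 3 did not overlap, against 8.16%. Cyp4a14 was higher in females by 2.22 ± 0.66 (4.67-fold; DESeq2 adjusted P = 0.0161). The highest male LL mouse had 2486 normalized counts and the lowest female LL mouse 4222. This call was lost without male LL 3 (2.10, adjusted P = 0.0584), with fragment length as a term (2.18, adjusted P = 0.0632) and with the replicate number as a block (2.30, adjusted P = 0.0663). Cyp4a10 had 0.97 ± 0.58 (DESeq2 adjusted P = 0.342), and male LL 1, at 5465, was above female LL 1. Cyp4a31 had 0.68 ± 0.28 and Cyp4a32 -0.72 ± 0.26 (DESeq2 adjusted P = 0.127 and 0.0672). Cyp4a12a and Cyp4a12b were 272-fold and 198-fold lower in LL females (DESeq2 adjusted P = 1.01e-11 and 4.12e-17). The PP and LL sex comparisons share no libraries with each other, whereas each shares its male libraries with the male genotype comparison.

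The make-up of the Cyp4a pool was computed from TPM within each library, which does not depend on scaling between libraries. Cyp4a12a and Cyp4a12b together held 73.9%, 85.3%, 68.8% and 53.3% of the summed Cyp4a TPM in male PP 1 to 4 and 11.1%, 26.8%, 28.1% and 57.7% in male LL 1 to 4. The Cyp4a12 pair held most of the pool in each male PP mouse and in male LL 4, and Cyp4a10 and Cyp4a14 held most of it in the other 3 LL males, with 85.0%, 69.7% and 66.1%. In females Cyp4a10 and Cyp4a14 held 96.1% to 97.4% of the pool in PP and 97.5% to 98.5% in LL mice, and the Cyp4a12 pair at most 0.276%.

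The balance of Cyp4a14 to Cyp4a10 also differed. The ratio of their TPM was 0.119, 0.0516, 0.0386 and 0.0801 in male PP 1 to 4 and 0.382, 0.268, 0.451 and 0.393 in male LL 1 to 4. All 4 LL males were above all 4 PP males, male LL 4 included, although both genes were low in it. The ratio was not tested, and no share over other pairs of genes was computed. In PP males it rests on 10.1 to 170 estimated counts of Cyp4a14. The ratio was 0.787 to 1.42 in PP females and 0.688 to 0.905 in LL females. The ratio of Cyp4a12a to Cyp4a12b was 2.96 to 4.15 in PP males and 1.69 to 3.22 in LL males, and it rests on reads that the pair largely shares.

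**Figure D3:**
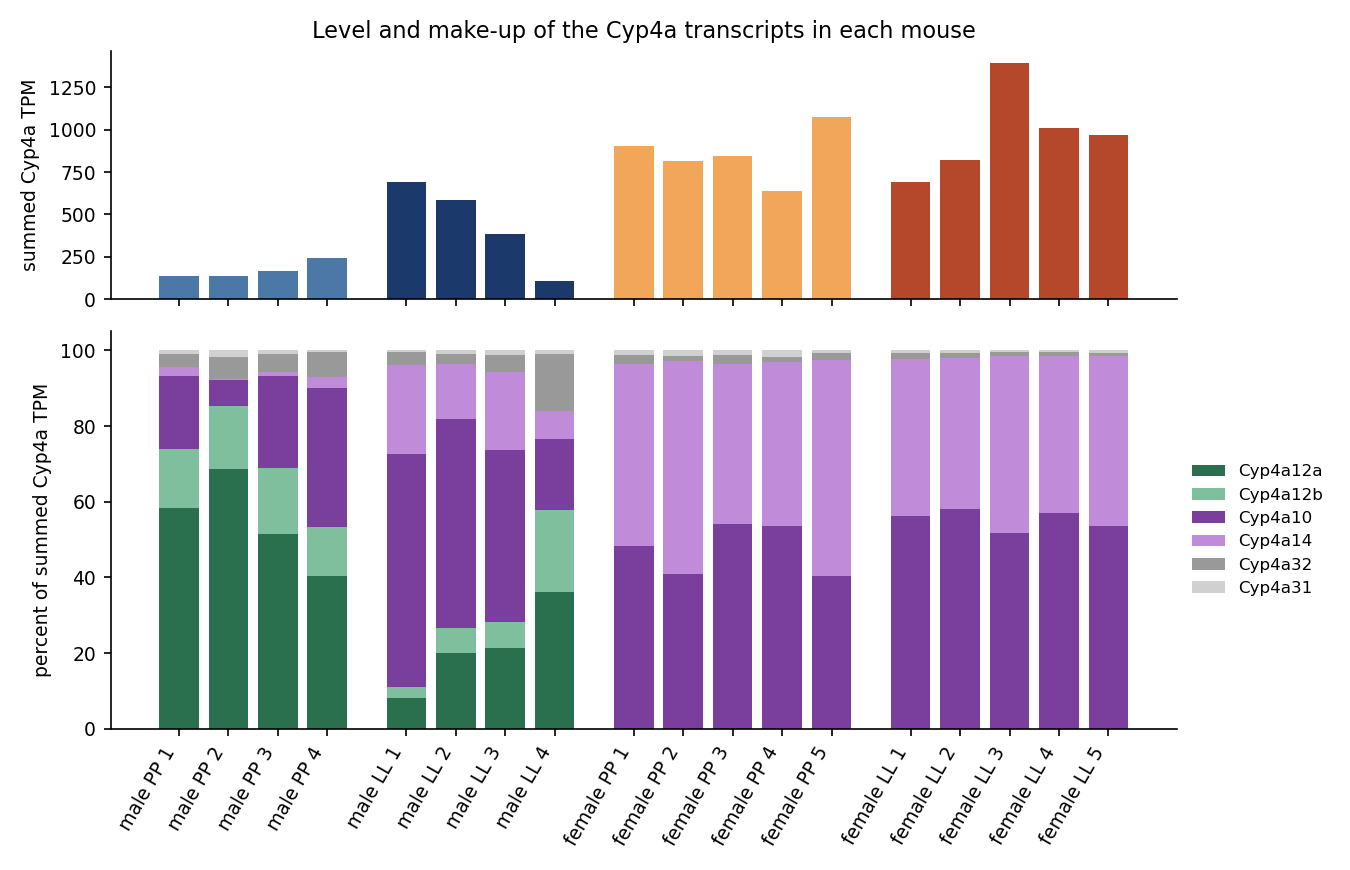
Summed TPM of the 6 Cyp4a genes in each mouse (top, bars from 0) and the percent of that sum on each gene (bottom, stacked bars). The sum was 134 to 245 in PP males, 106 to 691 in LL males, 639 to 1074 in PP females and 692 to 1396 in LL females, and the Cyp4a12 share was at least 53.3% in the 4 PP males and male LL 4 and at most 28.1% elsewhere. In log2(TPM + 1) the median of all tested genes was also 0.21 higher in LL males and 0.50 higher in PP females than in PP males.

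As a level, the summed Cyp4a TPM was 170 ± 51.6 in PP males, 442 ± 258 in LL males (SD, n = 4 each), 855 ± 157 in PP females and 977 ± 265 in LL females (SD, n = 5 each). In log2(TPM + 1) the median of all tested genes was itself 0.21 higher in LL males and 0.50 higher in PP females than in PP males. In normalized counts the means of the summed Cyp4a genes were 3798, 6286, 9719 and 11940 in the same order of groups. Cyp4a12a led in PP males with 88.9 ± 9.52 TPM, followed by Cyp4a10 with 41.3 and Cyp4a12b with 25.9 ± 4.91. In LL males Cyp4a10 led with 236, ahead of Cyp4a12a with 73.7 ± 34.4, but male LL 4 had more Cyp4a12a than Cyp4a10. Cyp4a10 and Cyp4a14 led in females, with Cyp4a14 above Cyp4a10 in 2 of 5 PP mice and below it in all 5 LL mice. Among all 52230 genes ranked by mean TPM, Cyp4a14 was at place 5501 in PP males, 774 in LL males, 258 in PP females and 254 in LL females, and Cyp4a12a at 653, 852, 11392 and 12619. The hepatocyte marker sums given above were likewise lowest in PP males and next lowest in LL males, and their part in the TPM levels was not tested.

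The transcripts behind the sums were few. Cyp4a10 and Cyp4a14 each rested on 1 transcript (at least 99.47% and 97.03% of the gene by group mean), and the Cyp4a12 genes had 1 transcript each in the tables. Cyp4a31 was split between a transcript of 2396 bases, with 80.8% of the gene in PP males and 38.4% in LL females, and one of 2509 bases, with 8.64% and 59.96%, the latter on at most 63.5 estimated counts in a library. Of the other genes named Cyp4a in the cluster, Cyp4a29, Cyp4a30b, Cyp4a28-ps, Cyp4a29-ps1 and Cyp4a30-ps had 0 counts in all 18 libraries.

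Within groups, Cyp4a14 varied with Cyp4a10 and Cyp4a12a with Cyp4a12b. With group means subtracted from log2(normalized count + 1), Spearman's rho over the 18 libraries was 0.76 between Cyp4a14 and Cyp4a10, 0.69 between Cyp4a12a and Cyp4a12b, 0.17 between Cyp4a14 and Cyp4a12a and 0.26 between Cyp4a10 and Cyp4a12a. The libraries share their depth and composition with both genes of a pair, and these values are descriptions. Among 5639 genes with a mean of at least 50 normalized counts, those most like Cyp4a10 included Ugt3a2 (0.89), Hsd17b4 (0.87), Slc17a8 (0.85) and Ehhadh (0.82). Hsd17b4 and Ehhadh encode peroxisomal beta-oxidation enzymes. The genes most like Cyp4a14 were Dpys (0.86), Abca8a (0.81), Ubap1 (0.81), Cul4a (0.80) and Ei24 (0.78). Those most like Cyp4a12a were Serpina12 (0.80), Cyp27a1 (0.79), Serpina4-ps1 (0.79), Serpina3k (0.76) and Trip4 (0.75). Cyp4a12a had at most 19.1 normalized counts in any female, so its rho values rest partly on very few reads. Its value with Cyp4a12b also rests on reads that the pair can share.

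**Figure D4:**
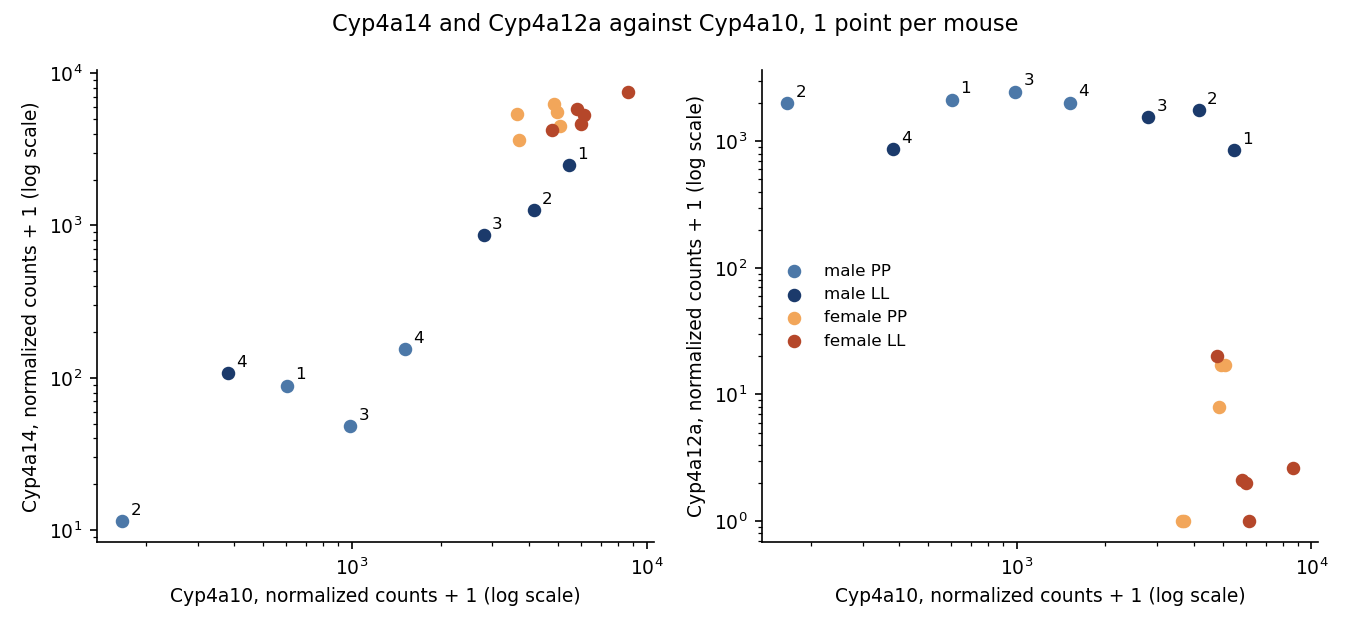
Normalized counts + 1 of Cyp4a14 (left) and Cyp4a12a (right) against those of Cyp4a10 in each mouse, log axes, with male points carrying their mouse number. PP and LL males form a band in which Cyp4a14 was high where Cyp4a10 was high, with no such band for Cyp4a12a. Spearman's rho within groups was 0.76 and 0.26, taken over all 18 libraries and not over males alone. Females had at most 19.1 normalized counts of Cyp4a12a.

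Other genes known as PPARα targets were set beside the members. Of 44 tested, 38 with an adjusted P in males, 3 were called higher and 0 lower in LL males, with 37 log2 fold changes above 0 and a median of 0.31. Abcd2, a peroxisomal fatty acid transporter, rose from 13.0 ± 7.47 to 48.3 ± 29.7 normalized counts, by 1.95 ± 0.38 in log2 (DESeq2 adjusted P = 0.000396). Acot3, a peroxisomal acyl-CoA thioesterase, rose from 56.0 ± 39.0 to 243 ± 166 (2.11 ± 0.61; adjusted P = 0.0471), and Ehhadh, the bifunctional enzyme of peroxisomal beta-oxidation, from 1166 ± 241 to 2095 ± 657 (0.84 ± 0.24; adjusted P = 0.0458). Of 30 alternative fits, 16 kept the call of Abcd2, 14 that of Acot3 and 17 that of Ehhadh, and edgeR called none of the 3 (edgeR adjusted P = 0.183, 0.332 and 0.380). At an unadjusted p below 0.05 there were 15 of 44, against 7.81% of all genes, and 0.283% of all genes were called.

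In females 0 of the 44 targets were called by DESeq2, with 13 of 44 at an unadjusted p below 0.05. Over all genes the shares were 0.658% and 13.0%. The median of the targets was 0.26 with 35 above 0. The smallest unadjusted p were those of Cpt2 (0.34 ± 0.11; DESeq2 adjusted P = 0.0770), Acadl (0.28 ± 0.09; 0.0796) and Fitm1 (1.1997 ± 0.38; 0.0874). Cpt2 and Acadl encode enzymes of mitochondrial fatty acid oxidation. The median over all tested genes was between -0.00165 and 0.0134 in the 5 comparisons. For the interaction 35 targets had an adjusted P and 0 of them were called by DESeq2, and 3 of 44 had an unadjusted p below 0.05 against 5.67% of all genes. Abcd2 had the smallest, with an interaction of -2.13 ± 0.47 and an unadjusted DESeq2 p of 6.21e-06. It was among those without an adjusted P and so could not be called.

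By sex, 9 targets were called higher and 1 lower in PP females than in PP males (median 0.23), and 8 higher and 0 lower in LL mice (median 0.23). Over all genes 6.45% were called in PP and 6.12% in LL mice. Acot3 was higher in PP females by 4.35 ± 0.57 and Abcd2 by 4.11 ± 0.36 (DESeq2 adjusted P = 6.56e-12 and 1.52e-27). In LL mice the values were 2.52 ± 0.57 and 1.98 ± 0.31 (adjusted P = 0.000549 and 1.90e-08). Acot4 was higher in females by 1.88 ± 0.29 in PP and 1.501 ± 0.29 in LL mice, and Acot2 by 1.85 ± 0.40 and 1.54 ± 0.37.

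The partners of omega-oxidation are the enzymes that supply electrons to the P450, oxidise the alcohol and the aldehyde, and break down the dicarboxylic acid. Of 20 tested, 1 was called by LL genotype in males, Ehhadh, and 0 in females (0.283% and 0.658% of all genes). An unadjusted p below 0.05 was found for 5 of 20 in each sex, against 7.81% of all genes in males and 13.0% in females. In males these were Ehhadh, Abcd3 (0.44 ± 0.15; DESeq2 adjusted P = 0.137), Acot4 (0.92 ± 0.31; 0.137), Cyb5r3 (0.37 ± 0.13; 0.150) and Acaa1b (0.62 ± 0.26; 0.312). The medians were 0.04 in males and 0.26 in females. In females the smallest unadjusted p were those of Cyb5a, an electron donor to P450 enzymes (0.40 ± 0.12; DESeq2 adjusted P = 0.0633), Aldh1a1, an aldehyde dehydrogenase (0.59 ± 0.20; 0.125), and Acaa1b, a peroxisomal thiolase (0.64 ± 0.23; 0.144). By sex, Acot4, Adh1 and Ehhadh were called higher and Scp2 and Aldh1a1 lower in PP females (1.88, 0.52, 0.91, -0.87 and -0.95). In LL mice Acot4, Adh1 and Acot8 were called higher and Scp2 lower (1.501, 0.59, 0.93 and -0.97). Por, the reductase that all microsomal P450 enzymes use, was in the list and was called in none of the 4 comparisons.

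Of 14 other genes of the CYP4 family, 6 were tested and 0 were called by genotype in either sex. Cyp4v3, which encodes a fatty acid hydroxylase, had -0.38 ± 0.11 in males (DESeq2 adjusted P = 0.0471), within the fold limit. It was lower in PP females than in PP males by -0.73 ± 0.10 (adjusted P = 1.92e-10), the 1 call of the list by sex.

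Among 26 regulators known to act on Cyp4a genes or on sex differences in liver, 10 had an adjusted P from DESeq2 in males and 24 in females, and 0 of these were called by LL genotype. The other 16 in males and 2 in females could not be called. At an unadjusted DESeq2 p below 0.05 there were 4 of 26 in each sex, against 7.81% of all genes in males and 13.0% in females. For Ppara itself the values were -0.37 by LL genotype in males and -0.85 ± 0.43 in females (DESeq2 adjusted P = 0.864 and 0.326). Among the smallest unadjusted p in males were those of the oestrogen receptor gene Esr1 (0.90 ± 0.33) and Socs2, a growth hormone induced feedback inhibitor (-1.10 ± 0.41), at 0.00559 and 0.00691 with no adjusted P. In females they were those of Rxra, the partner receptor of PPARα (-0.45 ± 0.17; adjusted P = 0.156), Nr1i3 (0.51 ± 0.22; 0.237) and Pparg (0.63 ± 0.29; 0.284). By sex, Prlr, Cux2 and Esr1 were called higher and Bcl6 lower in PP females (2.19, 5.49, 1.33 and -2.09). Cux2 is a female-specific and Bcl6 a male-biased repressor in mouse liver. In LL mice Prlr, Cux2, Nr1i3, Socs2 and Stat5b were called higher in females (1.99, 5.98, 0.93, 1.31 and 0.65).

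Genes known for higher expression in male liver, which like Cyp4a12a follow growth hormone, had a median log2 fold change of -0.63 by LL genotype in males, with 22 of 23 below 0. DESeq2 called 0 of the 23, of which 18 had an adjusted P. An unadjusted p below 0.05 was found for 4 of 23, against 7.81% of all genes. Cyp7b1, an oxysterol hydroxylase, had 2906 ± 581 normalized counts in PP males and 1468 ± 579 in LL males (-0.98 ± 0.44; DESeq2 adjusted P = 0.339), Gstp1 -0.78 ± 0.36 (0.369) and Mup1, a major urinary protein that shares reads with near copies, -1.26 ± 0.62 (0.403). Cyp4a12a at -0.77 and Cyp4a12b at -0.42 were on either side of the list's median. In females the median was -0.54 with 19 of 23 below 0 and 0 called by DESeq2. There 9 of 23 had an unadjusted p below 0.05, against 13.0% of all genes. The smallest were those of Ugt2b38 (-1.83 ± 0.55; adjusted P = 0.0659), C8a (-0.91 ± 0.30; 0.103) and Serpina1e (-2.49 ± 0.90; 0.144). By sex 20 of 23 were called lower in females in both genotypes, with medians of -3.65 in PP and -4.20 in LL mice. Over all genes 6.45% were called in PP and 6.12% in LL mice. The smallest adjusted P in PP mice were those of Mup20 (-6.68 in PP and -6.69 in LL mice), Elovl3 (-4.96 and -4.09), Cyp7b1 (-4.80 and -4.19), Mup1 (-6.52 and -5.55) and Mup21 (-4.75 and -4.55).

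Of 20 tested genes known for higher expression in female liver, 13 had an adjusted P in males. Of the 20, 3 were called higher in LL males than in PP males, with a median of 0.40, where 0.283% of all genes were called. Cyp17a1, a steroid hydroxylase, had 28.8 to 62.9 normalized counts in PP males and 83.9 to 449 in LL males (2.24 ± 0.52; DESeq2 adjusted P = 0.00441). Cyp2a4, a steroid hydroxylase of female liver, had 0.940 to 5.25 and 1.78 to 96.1, groups that overlapped (3.21 ± 0.93; adjusted P = 0.0484). Acot3, given above, was the third. Of 30 alternative fits, 26 kept the call of Cyp17a1 and 12 that of Cyp2a4, and edgeR called neither (edgeR adjusted P = 0.183 and 0.380). In females 0 were called by LL genotype by DESeq2, with a median of 0.07. An unadjusted p below 0.05 was found for 0 of them, against 13.0% of all genes. By sex, 19 of the 20 were called higher in PP females and 20 in LL females than in males of the same genotype, among them Slc22a26 (7.95 and 7.19) and Cyp2a4 (10.18 and 6.30). Over all genes 6.45% were called in PP and 6.12% in LL mice.

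**Figure D5:**
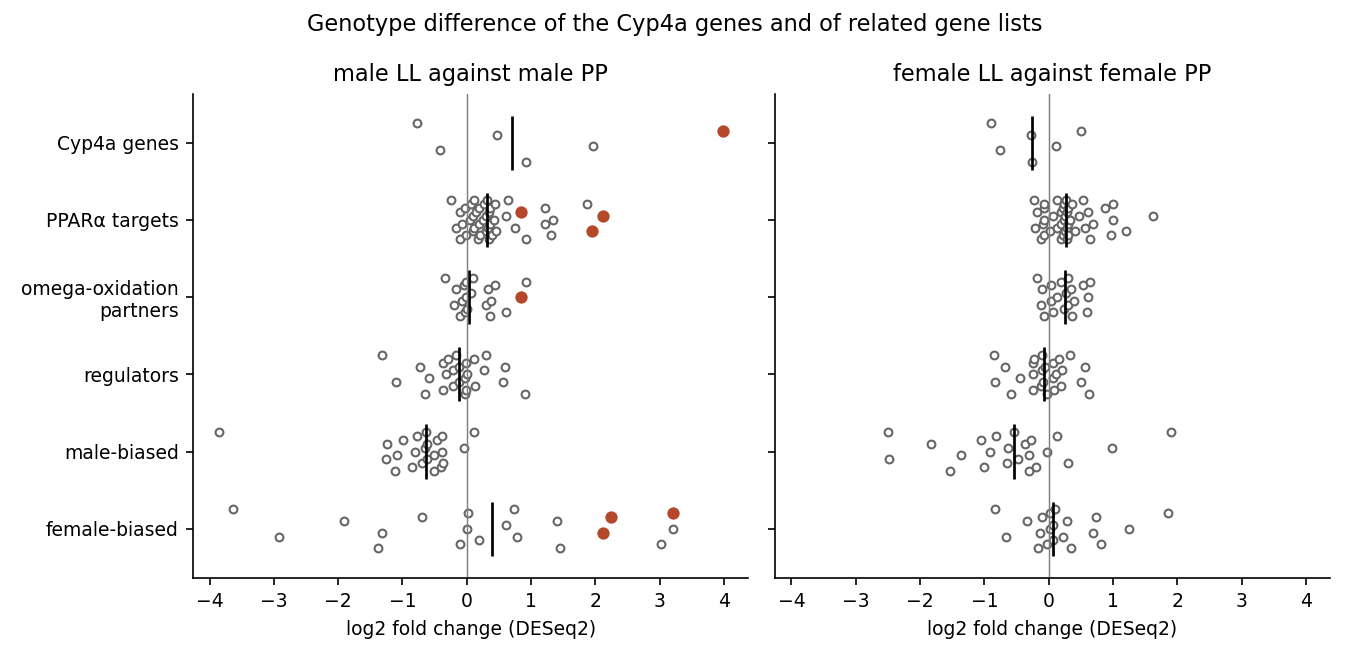
Log2 fold change by LL genotype (DESeq2; horizontal axis) of the genes of each list, in males on the left and females on the right on the same axis, where each point is a gene, red filled points were called and vertical lines are list medians. Called genes were Cyp4a14, Abcd2, Acot3, Ehhadh, Cyp17a1 and Cyp2a4, all in males, with Acot3 and Ehhadh shown in 2 lists each, and 0 in females.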

How the data were processed

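RNA from 18 mouse livers was sequenced, and the authors assigned reads to GENCODE M26 transcripts (GRCm39) with Salmon (version 1.4.0 per the submitters' processing notes). Each deposited table gave transcript TPM, scaled by Salmon to 1 total per library, and estimated counts, which were not scaled between libraries. Here transcripts were joined to genes through GENCODE M39, which left out 1655 of 139225 transcripts (at the lowest 99.76% of counts were kept). Estimated counts were summed per gene and rounded, TPM was summed per gene, and the 10938 genes that reached 10 counts in 4 or more libraries were tested. Totals of 3794671 to 6613905 counts per library leave a wide counting error on members with few counts.

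DESeq2 1.42.0 (R 4.3.3; Wald test, Benjamini-Hochberg) and the call threshold follow the methods of the study, which name pairwise comparisons. The single fit of all 18 libraries with the 4 groups as levels was chosen here. An adjusted P left empty by independent filtering was kept empty. Alternatives were edgeR 4.0.16, limma 3.58.1 on log2(TPM + 1), TMM size factors, other filters, terms for age, fragment length or replicate number, a length offset, only the groups compared, summed near-identical members, and leaving out each library. Fragment length was the median difference between length and effective length over transcripts of at least 3000 bases. The fit was tested on simulated counts. Single values were compared by two-sided exact permutation tests on log2(normalized count + 1) (scipy 1.17.1). Sequences are from GENCODE M39 and GRCm39.

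The members, gene lists and tests were chosen with earlier results of these data known. Named were all members, and from each list up to 5 called genes by adjusted P or, with 0 called, up to 3 by unadjusted p, all called regulators and partners, and the 5 genes most like Cyp4a14, Cyp4a10 and Cyp4a12a. Ppara, Por and the interaction of Abcd2 were named after their values were seen. Some genes that this rule names are not reported here.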

Additional observations from a re-analysis of the deposited data

Results flagged for a closer look

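Cyp4a12a in female LL 1, at 19.1 normalized counts, stood apart from the other 4 LL females, which had 0 to 1.63. The gap to the next mouse was 0.915 of the range of the group, a test by which chance marks about 1 group in 20. At counts this low that rate cannot be relied on, and the reads can be shared with Cyp4a12b. Without this library the interaction of Cyp4a12a was -2.22 in log2, with no call by DESeq2.

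The effect of LL genotype on Cyp4a14 differed between the sexes by the interaction test of DESeq2, with a female minus male difference of -3.87 in log2 (adjusted P = 0.0180). Male LL 1, 2 and 3 were above all PP males and male LL 4 was not, so that the PP and LL groups overlapped in males as in females. The call was lost in 13 of 29 alternative fits, among them edgeR (adjusted P = 0.385).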

How the results depend on the processing

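Called members in LL males against PP males were 1, with 0 by edgeR and 0 by limma, 2 with the length offset (Cyp4a10 added) and 2 with only the male groups (Cyp4a12a added), and 1 to 3 when single libraries were left out. Cyp4a14 in males went from 3.98 to 3.98 by edgeR and 4.07 by limma, not called in either, and was 3.31 to 4.61 without single libraries. Called members were 0 to 0 in females, 5 to 5 in PP females against PP males, 2 to 4 in LL females against LL males and 0 to 1 for the interaction when single libraries were left out. With near-identical members summed, 3 of 3 features were called in PP females against PP males. The interaction call of Cyp4a14 was lost (0 members) by edgeR, by limma, with the replicate block, and without female PP 1, 2 or 3, male PP 1, 2 or 3, female LL 1 or 4 or male LL 1 or 2. Values near 0 that changed sign, none of them called, were Cyp4a12b in males (0.0342 by limma), Cyp4a14 in females (-0.0217 by limma, -0.0257 to 0.21 without single libraries), Cyp4a32 in females (0.0151 with fragment length), Cyp4a32 in PP females against PP males (-0.0163 with the replicate block, -0.12 to 0.20 without single libraries) and the interactions of Cyp4a12a (-0.0445 with the length offset, -0.33 with the replicate block, -0.15 summed, -2.22 to 0.46 without single libraries) and Cyp4a12b (-2.09 to 0.14 without single libraries). The causes were not tested. limma called 4307 genes in PP females against PP males, 4223 of them higher, against 705 by DESeq2 with 402 higher.

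The replicate numbers did not pair the mice: same-numbered libraries of 2 groups had correlations of -0.17 to 0.16 between their deviations from the group means. With the replicate block, Cyp4a14 in males had 3.96 (DESeq2 adjusted P = 0.000357) and the LL females against LL males call of Cyp4a14 was lost (2.30, adjusted P = 0.0663).

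Depth limits Cyp4a31 and the Cyp4a12 genes in females, and shared sequence limits the split within the Cyp4a10 trio and the Cyp4a12 pair.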
